A study of Mus musculus with 10 samples.

Results

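The transcription factor p53, encoded by Trp53, and 9 of its direct target genes were examined in the dorsal telencephalon of mouse embryos with and without DOT1L, a histone H3 lysine 79 methyltransferase. The 9 targets were Mdm2, Cdkn1a, Ccng1, Bax, Bbc3, Pmaip1, Phlda3, Zmat3 and Trp53inp1. They were taken by name as widely known p53 targets, with earlier results of these data known. These 10 genes stand among 43629 gene identifiers in the count tables, and all 10 were among the 17039 genes that passed the low-count filter.

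Total RNA was sequenced from 10 C57BL/6 samples at the embryonic stage E14.5, 5 controls without Cre that were Dot1l-cKO f/+ and 5 conditional knockouts with Cre/+ that were Dot1l-cKO f/f, called Dot1l-cKO. All samples thus carried at least 1 conditional (floxed) Dot1l allele, and the study's methods describe the controls as littermates. The Cre driver is active in the telencephalon, and only the Dot1l-cKO samples carried it, so effects of carrying the driver and effects of the Dot1l deletion cannot be told apart.

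Total counts ranged from 54202349 to 66556034 per sample. Dot1l itself measured 31.4, 41.5, 36.6, 40.6 and 36.3 CPM (read counts scaled to a common library size) across control replicates 1 to 5 and, in the same order, 42.3, 20.1, 39.6, 43.4 and 51.7 CPM across the Dot1l-cKO samples. Its log2 fold change was 0.08 ± 0.20 (SE) with an adjusted p of 0.864 in edgeR, so the Dot1l count over the whole gene was lower in 1 Dot1l-cKO sample and not in the group. Which piece of the gene the deletion removes is not given in the sources used here, so this count does not check the deletion. The 4 samples numbered replicate 2 and 3 held 0.0471 to 0.492% of their counts in mitochondrial ribosomal RNA, against 5.79 to 10.9% in the other 6 samples, so values from those 6 samples are given where they change the call of a p53 gene or of a named gene of the pathway lists.

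In unstressed cells the p53 protein is kept scarce by MDM2, a ubiquitin ligase that is also one of its targets, and DNA damage or other stress lets it accumulate. It then binds a DNA element of adjoining half-sites near its targets, whose products halt the cell cycle, start mitochondrial cell death or feed back on p53. In the developing cortex, activation of p53 in progenitors is known for causing cell loss. Since p53 is controlled largely at the level of the protein, the RNA of its targets is often read as a measure of its activity.

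The promoters show which of the 10 genes carry such an element close to a start site. RefSeq promoter windows (assembly GRCm38.p6, 250 bases before to 50 bases after each start) were matched for 7 of the 10 genes, all but Pmaip1, Zmat3 and Trp53inp1, and were searched for the p53 half-site, a motif of 10 bases that reads the same on both strands. An exact half-site was found in windows of 5 of the 7 genes (Trp53, Mdm2, Cdkn1a, Ccng1 and Bax) and in 8.36% of all 32851 windows. Adjoining half-sites of 20 bases with at most 3 mismatches in all were found in 4 of the 7 genes and in 1.38% of all windows. With at most 1 mismatch they were found in Cdkn1a and Ccng1 and in 0.067% of all windows. These counts are of genes and the shares are of windows. The 7 genes had 10 windows, so counts and shares compare only roughly. The elements are shown in capitals for these 4 genes, because the cell-cycle genes among them matched most closely and Ccng1 and Bbc3 carry the results below.
Cdkn1a, chr17:29090923-29090952, plus strand, element 51 to 32 bases before an upstream start of the gene, 1 mismatch: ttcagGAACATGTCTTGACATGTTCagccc
Ccng1, chr11:40755422-40755521, minus strand, element 195 to 176 bases before the start, 1 mismatch: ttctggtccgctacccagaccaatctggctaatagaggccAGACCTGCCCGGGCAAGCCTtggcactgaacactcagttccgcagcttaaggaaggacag
Bbc3, chr7:16309446-16309545, plus strand, element 97 to 78 bases before a start in an intron of the annotated gene, 3 mismatches: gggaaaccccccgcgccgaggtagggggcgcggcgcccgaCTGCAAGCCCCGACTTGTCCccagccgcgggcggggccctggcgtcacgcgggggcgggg
Trp53, chr11:69580244-69580343, plus strand, element 75 to 56 bases before the start, 3 mismatches: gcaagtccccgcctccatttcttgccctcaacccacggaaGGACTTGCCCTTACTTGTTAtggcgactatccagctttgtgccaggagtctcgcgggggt
The printed stretches overlap no annotated exon of their own gene. A match is a description of the letters and was not tested as a bound site, and a window without a match says nothing of elements elsewhere in the gene.

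The comparison asked whether Trp53 and its targets differed in level between Dot1l-cKO and control tissue. None of the 10 genes was called differentially expressed (DE, adjusted p under 0.05 over all genes tested) by edgeR's quasi-likelihood test, against 7.11% of all genes tested, 5.67% increased and 1.44% decreased. At an unadjusted p under 0.05 stood 3 of the 10 genes, Ccng1, Bbc3 and Phlda3, all higher in Dot1l-cKO, against 20.6% of all genes tested. DESeq2 called 1 of the 10, Bbc3, against 2011 of the 19302 genes it tested. Limma on the normalised values called 0 of the 10, against 1215 of 17039 genes. The labels do not say what the replicate numbers mark. Same-numbered samples deviated together and were taken as pairs, though only 2 of the 5 controls matched best under their own number. With the replicate number as a block edgeR called 2 of the 10 genes, Ccng1 and Phlda3, both increased, and these calls rest on that pairing. In that fit 6.51% of all genes were increased and 2.91% decreased. Of the log2 fold changes 7 were positive and 3 negative, with a median of 0.17, against -0.01 over all genes tested.

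**Figure D1:**
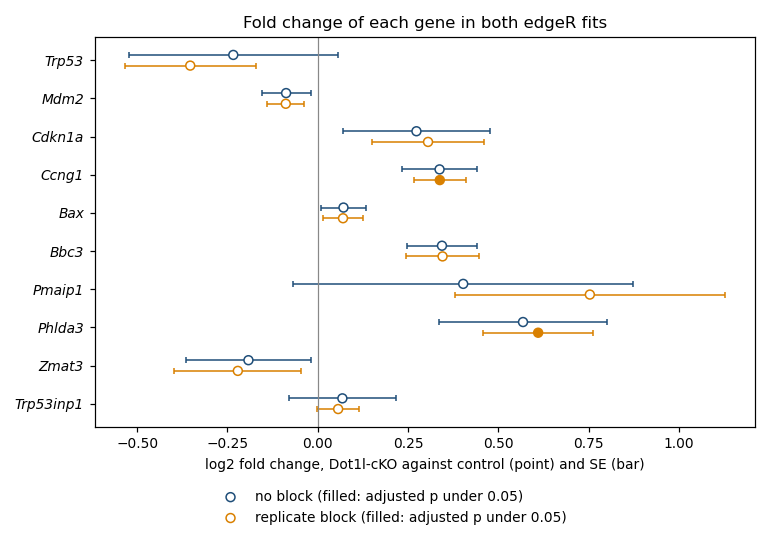
Log2 fold change (x axis, Dot1l-cKO against control) with its SE for each of the 10 genes, without a block and with the replicate number as a block, filled where the adjusted p was under 0.05. Only Ccng1 (0.34) and Phlda3 (0.61) are filled, and only in the fit with the block.

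Levels of the 10 genes differed widely, which sets the depth behind each value. Per kilobase of exon, the control means were 29.6 CPM for Bax, 26.7 for Trp53inp1, 17.8 for Trp53, 16.8 for Mdm2, 12.3 for Ccng1, 3.55 for Bbc3, 2.80 for Zmat3, 2.51 for Phlda3, 0.704 for Cdkn1a and 0.422 for Pmaip1. Neighbours in this order overlapped between control samples for Bax and Trp53inp1, Trp53 and Mdm2, Zmat3 and Phlda3, and Cdkn1a and Pmaip1, so the order within each of these pairs is not settled by the spread. Cdkn1a, encoding the cell-cycle inhibitor p21, and Pmaip1, encoding the cell death protein NOXA, were thus the lowest of the set, with 109 to 258 and 29 to 180 counts per sample. The tissue is a mixture of cells, so fewer cells of a type and less RNA per cell cannot be told apart for any of these genes.

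Trp53 was not called. It measured 82.7, 56.2, 62.6, 82.1 and 76.4 CPM across control replicates 1 to 5. Across Dot1l-cKO, in the same order, it measured 71.8, 24.0, 44.2, 88.9 and 77.3 CPM. The groups overlapped, and Dot1l-cKO replicate 2 was the lowest of all 10 samples, followed by Dot1l-cKO replicate 3. The log2 fold change was -0.23 ± 0.29 (SE) with an adjusted p of 0.708 in edgeR, and -0.03 without Dot1l-cKO replicate 2 (adjusted p = 0.949). Replicates 2 and 3 of both groups, the samples low in mitochondrial ribosomal RNA, held the 4 lowest Trp53 values. Among these 4 samples the log2 fold change was -0.78 (adjusted p = 0.315), and among the other 6 it was -0.02 (adjusted p = 0.913). The part of this sample difference in the Trp53 values was not tested.

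Among the genes that feed back on p53, neither Mdm2 nor Trp53inp1 was called. Mdm2, whose product marks p53 for degradation, measured 87.4, 87.2, 90.6, 83.5 and 78.1 CPM in the controls and 76.6, 88.1, 84.0, 78.7 and 74.4 CPM in the Dot1l-cKO samples, in the order of the replicate numbers. Its log2 fold change of -0.09 ± 0.07 had an adjusted p of 0.519, and it was lower in Dot1l-cKO in 4 of 5 pairs of same-numbered samples. Trp53inp1, whose product takes part in p53-dependent cell death and in autophagy, measured 202, 192, 176, 142 and 151 CPM in the controls and 211, 221, 187, 140 and 145 CPM in the Dot1l-cKO samples. Its values moved together within the pairs, replicates 1 and 2 being high and replicates 4 and 5 low in both groups, and the log2 fold change was 0.07 ± 0.15 (adjusted p = 0.844). Without Dot1l-cKO replicate 2 it was -0.02.

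Cdkn1a, Ccng1 and Zmat3 act on the cell cycle or on RNA. Cdkn1a, whose product p21 inhibits cyclin-dependent kinases, measured 2.39, 1.91, 3.86, 2.13 and 2.21 CPM in the controls and 3.51, 2.67, 3.33, 2.43 and 3.21 CPM in the Dot1l-cKO samples. All Dot1l-cKO samples lay above 4 of the 5 controls, while control replicate 3 was the highest of the 10. The log2 fold change was 0.27 ± 0.20, higher in 4 of 5 pairs, and was not called (adjusted p = 0.503). Without control replicate 3 it was 0.48 (adjusted p = 0.0855), within replicates 2 and 3 it was 0.07 (0.939) and in the other 6 samples 0.44 (0.268). Ccng1, encoding cyclin G1, measured 51.6, 38.9, 45.3, 40.8 and 38.8 CPM in the controls and 62.9, 59.7, 50.9, 49.6 and 49.0 CPM in the Dot1l-cKO samples. It was higher in Dot1l-cKO in all 5 pairs, and the groups overlapped through control replicate 1 alone, whose partner was the highest sample of all. The means of 43.1 ± 5.44 and 54.4 ± 6.40 CPM (control and Dot1l-cKO, SD, n = 5 each) differed 1.26-fold.

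The log2 fold change of Ccng1 was 0.34 ± 0.10 (SE) with an edgeR adjusted p of 0.0793, which became 0.0297 with the replicate block. Of the 10 edgeR fits with a library left out, 1 called Ccng1, the one without control replicate 1 (0.0430). The other 9 did not, at adjusted p up to 0.180, and neither did DESeq2 (0.0579). Its log2 fold change was positive both in the samples low in mitochondrial ribosomal RNA and in the others, at 0.41 (adjusted p = 0.277) and 0.30 (adjusted p = 0.273). Zmat3, encoding an RNA-binding zinc finger protein, measured 35.5, 36.0, 27.0, 32.1 and 29.5 CPM in the controls and 35.5, 16.5, 29.2, 28.3 and 30.6 CPM in the Dot1l-cKO samples. Dot1l-cKO replicate 2, which was also the lowest for Trp53 and Dot1l, stood below all other samples. The log2 fold change of -0.19 ± 0.17 was not called (adjusted p = 0.590) and was -0.05 without that sample.

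**Figure D2:**
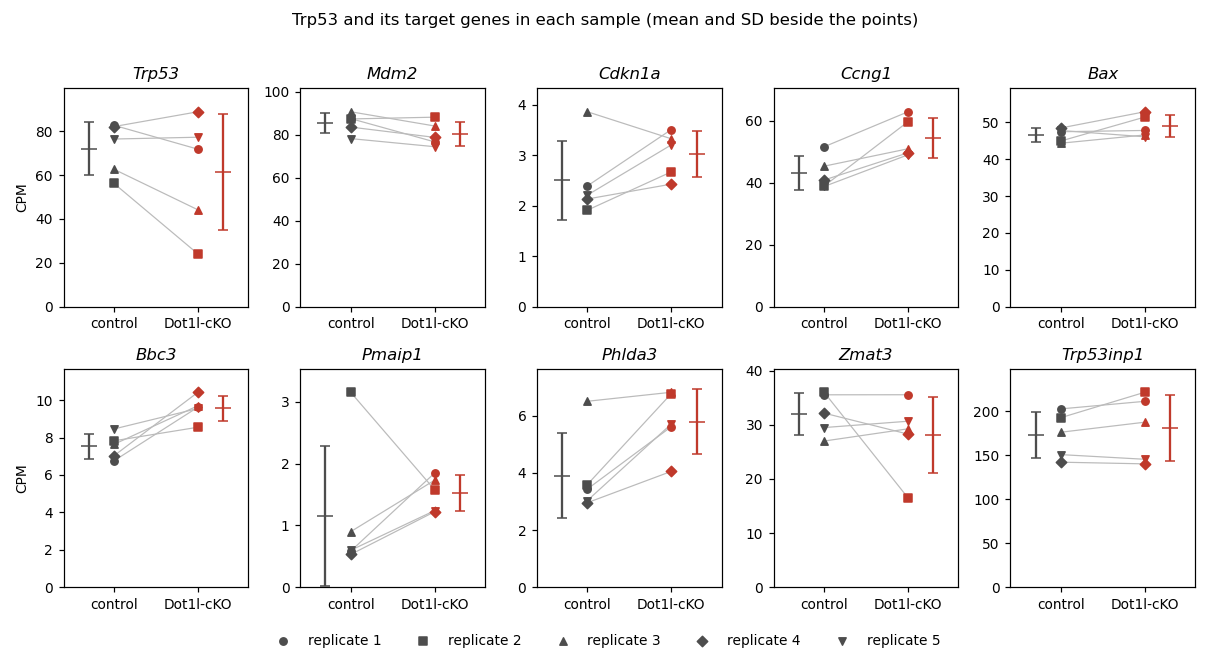
Level of each of the 10 genes in CPM (y axis, from 0) in the 5 control (grey) and 5 Dot1l-cKO (red) samples, with lines joining samples of the same replicate number and the mean ± SD beside them. Only for Bbc3 do the groups not overlap, at 6.75 to 8.46 CPM in controls and 8.55 to 10.4 CPM among Dot1l-cKO samples.

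The cell death genes differed in how they behaved. Bax, encoding the protein that opens the outer mitochondrial membrane, measured 47.4, 44.9, 44.3, 48.5 and 47.8 CPM in the controls and 47.8, 51.4, 46.6, 52.9 and 46.1 CPM in the Dot1l-cKO samples, so that its groups overlapped and all 10 samples lay close together (log2 fold change 0.07 ± 0.06, adjusted p = 0.578). Bbc3, encoding the BH3-only protein PUMA that frees BAX to act, measured 6.75, 7.82, 7.64, 7.02 and 8.46 CPM in the controls and 9.62, 8.55, 9.70, 10.4 and 9.55 CPM in the Dot1l-cKO samples. Every Dot1l-cKO sample was above every control, which held in this direction for 1 of the 10 genes and for 6.17% of all genes tested. The means were 7.54 ± 0.673 and 9.57 ± 0.668 CPM (SD, n = 5 each), 1.27-fold. The margin was narrow, since control replicate 5 and Dot1l-cKO replicate 2 differed by less than the SD of either group.

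For Bbc3 the log2 fold change was 0.34 ± 0.10 (SE), with an edgeR adjusted p of 0.0583 that stayed above the threshold with the replicate block (0.0765). DESeq2 called it (adjusted p = 0.0115). Of the 10 edgeR fits with a library left out, 2 called Bbc3, without control replicate 5 (0.0403) or without Dot1l-cKO replicate 2 (0.0479). The other 8 did not, at adjusted p up to 0.143. Pmaip1 measured 0.583, 3.16, 0.898, 0.529 and 0.597 CPM in the controls and 1.85, 1.58, 1.73, 1.22 and 1.24 CPM in the Dot1l-cKO samples. Control replicate 2 was the highest of all samples, at 180 counts, while the other 4 controls, at 29 to 60 counts, were all below the 5 Dot1l-cKO samples, at 77 to 99 counts. With all samples the log2 fold change was 0.40 ± 0.47 and was not called (adjusted p = 0.689).

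Without control replicate 2 the log2 fold change of Pmaip1 was 1.22 (edgeR adjusted p = 0.0119), the 1 of 10 fits with a library left out that called this gene. With the replicate block and without Dot1l-cKO replicate 2 it was 1.21 (adjusted p = 0.0234). In that fit control replicate 2 has no partner and does not inform the genotype effect, so it is no separate support. Leaving out Dot1l-cKO replicate 2 without the block gave 0.39 (adjusted p = 0.718). Among the 6 samples outside replicates 2 and 3, which also lack control replicate 2, it was 1.32 (adjusted p = 0.0290). Within replicates 2 and 3 it was -0.27 (adjusted p = 0.845). Control replicate 2 also held 206 counts of Nkx2-1, a gene of the ventral telencephalon, against 3 to 21 in the other 9 samples. The 5 tested markers of the ventral telencephalon did not set this sample apart. Their sum in it was 93.7 CPM, within the 40.5 to 194 CPM of the controls. The part of ventral tissue in the Pmaip1 value was not tested. Nkx2-1 was chosen for mention after its counts were seen.

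Phlda3 showed a similar dependence on 1 control. Its product holds back the kinase AKT at the membrane, and it measured 3.44, 3.60, 6.51, 2.96 and 3.03 CPM in the controls and 5.62, 6.78, 6.83, 4.06 and 5.72 CPM in the Dot1l-cKO samples. Control replicate 3 stood at the level of the highest Dot1l-cKO samples, and the other 4 controls were below all 5 of them. The means were 3.91 ± 1.48 and 5.80 ± 1.13 CPM (SD, n = 5 each), 1.48-fold, and it was higher in Dot1l-cKO in all 5 pairs. The log2 fold change was 0.57 ± 0.23 (SE) with an edgeR adjusted p of 0.194, became 0.61 with an adjusted p of 0.0469 under the replicate block, and 0.83 with an adjusted p of 0.0137 without control replicate 3. The other 9 fits with a library left out did not call Phlda3. With the block and without Dot1l-cKO replicate 2 it was not called (0.53, adjusted p = 0.121). A block by the number in the headers of the normalised tables, shared by replicates 2 and 3, did not call it either (0.59, adjusted p = 0.0669). In the 6 samples outside replicates 2 and 3 Phlda3 was also not called (0.70, adjusted p = 0.0796).

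**Figure D3:**
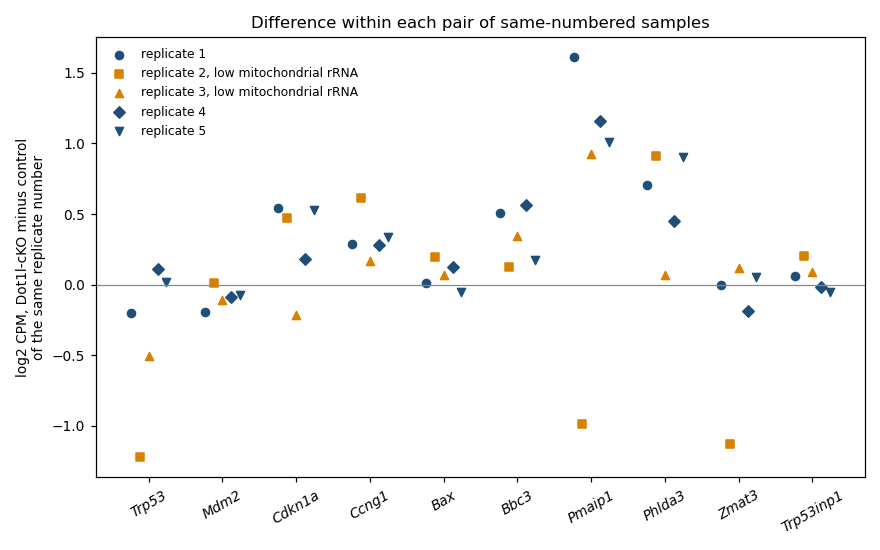
Difference in log2 CPM between the Dot1l-cKO and the control sample of each replicate number (y axis) for the 10 genes, with replicates 2 and 3, low in mitochondrial ribosomal RNA, in orange. Ccng1, Bbc3 and Phlda3 lie above 0 in all 5 pairs, while Trp53 (-1.22), Pmaip1 (-0.99) and Zmat3 (-1.13) have their lowest point in replicate 2.

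Across the 10 samples, Cdkn1a followed genes that were highest among the controls in replicate 3. The genes whose log2 CPM had the highest Pearson correlation with Cdkn1a were Cdh17 (0.97), Epor (0.96), Ptafr (0.94), Arsi (0.93) and Casp1 (0.92). The correlations are a description over 10 samples of 2 genotypes. These samples differed in depth, in mitochondrial ribosomal RNA and in cell type markers, and the part of such differences in the correlations was not tested. In control replicate 3 these 5 genes measured 0.764, 0.689, 1.32, 4.54 and 0.584 CPM, each above the other 4 controls. Cdkn1a was itself highest in that sample, so a choice by correlation with Cdkn1a favours genes that are high there. Between genotypes their log2 fold changes were 0.59 to 0.78, with edgeR adjusted p of 0.258 to 0.518. Control replicate 3 also had the highest control sum of microglia markers (54.2 CPM), erythroid markers (1935 CPM), meninges markers (852 CPM) and choroid plexus markers (663 CPM), and the part of these cells in the Cdkn1a and Phlda3 values was not tested.

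Beyond the 10 genes, further targets of p53 moved in small numbers. Of a list of 30 other targets 28 were tested (Cd80 and Gdf15 were not), 3 increased (Eda2r, Fas and Gadd45a), 1 decreased (Fbxw7) and 24 were not called, with a median log2 fold change of -0.02. The share called was 14.3%, against 7.11% of all genes tested (5.67% increased and 1.44% decreased). Gadd45a, which acts in DNA repair and growth arrest, rose from 2.87 to 5.57 CPM in controls to 5.83 to 8.91 CPM in Dot1l-cKO (log2 fold change 0.89 ± 0.20, adjusted p = 0.0219). Its groups did not overlap, as for 6.17% of all genes tested in this direction. Fas, a death receptor, rose by 1.15 ± 0.27 on the log2 scale (adjusted p = 0.0247) from 5 to 8 counts per control to 11 to 18 counts per Dot1l-cKO sample. Eda2r, a receptor of the tumour necrosis factor receptor family, rose by 0.65 ± 0.17 (adjusted p = 0.0470), with groups that overlapped at 3.13 to 5.51 and 5.44 to 7.79 CPM.

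Fbxw7, the substrate-binding part of a ubiquitin ligase, decreased from 86.7 to 94.9 CPM in controls to 67.4 to 80.4 CPM in Dot1l-cKO (log2 fold change -0.30 ± 0.06, adjusted p = 0.0169). Btg2, an antiproliferative gene and the highest in mean log2 CPM over all samples of the targets not called, had a log2 fold change of -0.03 ± 0.11 (adjusted p = 0.916). The block added Sesn1, which takes part in nutrient and stress signalling (0.24, adjusted p = 0.0217 with the block and 0.0544 without). When each library was left out in turn, Fbxw7 passed in 9, Gadd45a in 7, Fas in 6 and Eda2r in 1 of 10 fits, and without control replicate 4 no gene of this list was called. In the 6 samples outside replicates 2 and 3, Fas (1.15, adjusted p = 0.175) and Eda2r (0.61, 0.145) were not called, while Gadd45a (1.04, 0.0321) and Fbxw7 (-0.37, 0.0323) were. Fas was also not called by DESeq2 (adjusted p = 0.0587).

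Regulators of p53 had mostly negative fold changes, 16 of 19 tested genes, with a median log2 fold change of -0.14. Of the 19, 1 increased and 2 decreased without the block, and 1 increased and 4 decreased with it. Over all genes tested, 5.67% increased and 1.44% decreased without the block, and 6.51% and 2.91% with it. Usp28, a deubiquitinase that binds 53BP1, fell by 0.42 ± 0.08 on the log2 scale from 34.7 to 41.0 CPM in controls to 24.3 to 31.6 CPM in Dot1l-cKO (adjusted p = 0.0104). Atm, the kinase that signals DNA double-strand breaks to p53, fell by 0.33 ± 0.09 from 121 to 147 CPM to 86.2 to 114 CPM (adjusted p = 0.0421). Neither overlapped between groups, but both were named because they were called, so the separation is no added support. Trp63, a paralog of Trp53 that shares its DNA element, rose by 1.11 ± 0.27 at a level near the filter, with 10 to 27 counts per control and 21 to 48 per Dot1l-cKO sample (adjusted p = 0.0306).

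The block added Chek1 (-0.38 without the block, adjusted p = 0.0158 with it), a checkpoint kinase, and Sirt1 (-0.34, adjusted p = 0.0249 with it), a deacetylase that acts on p53. Trp53bp1, encoding 53BP1 and the regulator not called with the highest mean log2 CPM, had a log2 fold change of -0.15 ± 0.07 (adjusted p = 0.237). When libraries were left out in turn, Usp28 passed in all 10 fits and Atm and Trp63 in 3 each. In the 6 samples outside replicates 2 and 3, Usp28 (-0.34, adjusted p = 0.0926) and Atm (-0.41, 0.0912) were not called and Trp63 was (1.49, 0.0380). Cdkn2a, which encodes the MDM2 inhibitor ARF, was not tested, at 0 to 7 counts per sample.

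**Figure D4:**
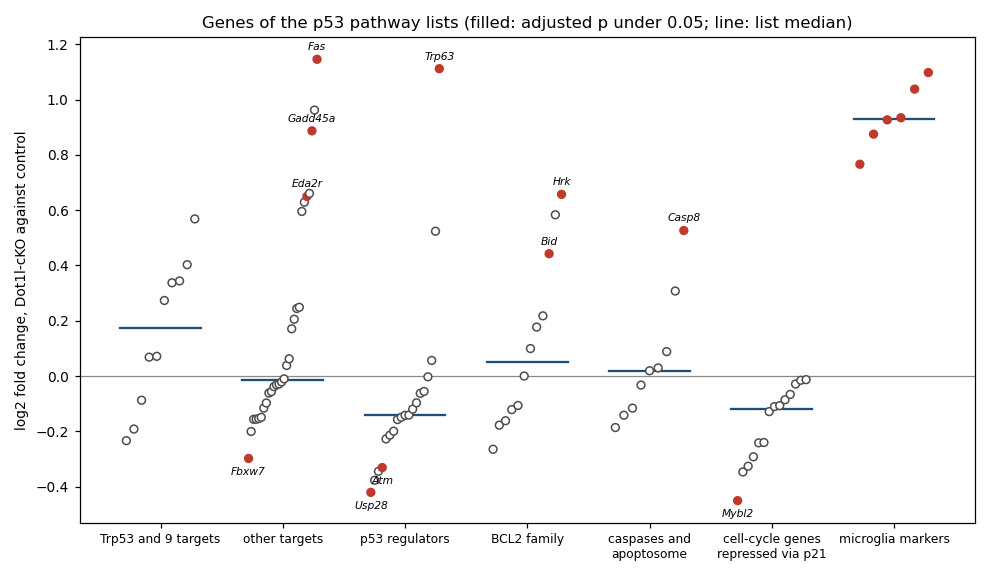
Log2 fold change (y axis, Dot1l-cKO against control) of each tested gene in the 10 p53 genes, the lists of related genes and the microglia markers, filled where edgeR's adjusted p without a block was under 0.05, with the list median as a line. Medians run from -0.14 for the regulators to 0.17 for the 10 genes, while that of the microglia markers is 0.93.

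In the cell death machinery that p53 feeds into, 2 of 12 further genes of the BCL2 family increased and 10 were not called, against 5.67% of all genes tested that increased, with a median log2 fold change of 0.05. Hrk, a BH3-only gene of neurons, rose from 5.49 to 7.38 CPM in controls to 9.83 to 11.3 CPM in Dot1l-cKO (log2 fold change 0.66 ± 0.11, adjusted p = 0.00500). Bid, the BH3-only gene whose product caspase 8 cleaves, rose from 8.58 to 10.4 CPM to 11.2 to 14.7 CPM (0.44 ± 0.10, adjusted p = 0.0256). The groups did not overlap for either gene, as for 6.17% of all genes tested in this direction, and both were named because they were called. With each library left out in turn Hrk passed in all 10 fits and Bid in 6. In the 6 samples outside replicates 2 and 3, Hrk was called (0.73, adjusted p = 0.0410) and Bid was not (0.43, 0.133). Mcl1, a survival gene and the member not called with the highest mean log2 CPM, had a log2 fold change of -0.12 ± 0.10 (adjusted p = 0.537).

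Among 9 genes of caspases and their partners, 1 increased, Casp8, the initiator caspase of death receptors such as FAS, from 3.74 to 6.26 CPM in controls to 6.92 to 8.20 CPM in Dot1l-cKO (0.53 ± 0.14, adjusted p = 0.0479), a share of 11.1% called against 7.11% of all genes tested. Of the 10 fits with a library left out, it passed in 1, the one without control replicate 3, and in the 6 samples outside replicates 2 and 3 it was not called (0.64, adjusted p = 0.0980). Cycs, encoding cytochrome c and the gene of the list not called with the highest mean log2 CPM over all samples, measured 73.7 ± 6.53 and 78.3 ± 10.9 CPM in controls and Dot1l-cKO (SD, n = 5 each, adjusted p = 0.685), and the block added Casp2, which was lower (-0.19 without the block, adjusted p = 0.0456 with it). The median of this list was 0.02.

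Cell-cycle genes that p53 is known to repress through p21 were all on the negative side, 14 of 14, with a median log2 fold change of -0.12. Over all genes tested the median was -0.01. The 14 signs come from the same samples and are not independent. The summed CPM of the list overlapped between groups, at 1195 to 1771 in controls and 1304 to 1619 in Dot1l-cKO, with control replicate 5 the lowest sample. The 1 gene called, a decrease, was 7.14% of the list. Of all genes tested 1.44% decreased and 7.11% were called in either direction. Mybl2, a transcription factor of the cell cycle, fell by 0.45 ± 0.12 on the log2 scale (adjusted p = 0.0417), from 23.3 to 35.5 CPM in controls to 18.9 to 25.1 CPM in Dot1l-cKO, and of the 10 fits with a library left out it passed in 1, the one without control replicate 5. In the 6 samples outside replicates 2 and 3 it was not called (-0.36, adjusted p = 0.194). The block added Bub1, a mitotic checkpoint kinase (-0.29 without the block, adjusted p = 0.0380 with it). Cenpf, a kinetochore protein gene and the highest of the others in mean log2 CPM, had a log2 fold change of -0.24 ± 0.15 (adjusted p = 0.406). These genes also mark dividing cells. Pax6, a marker of the dividing radial glia of this tissue, decreased by 0.36 ± 0.09 (edgeR adjusted p = 0.0294). It was the 1 gene called of the 5 dorsal telencephalon markers, of which 3 were positive and 2 negative. Eomes, a marker of intermediate progenitors, was at 0.03 ± 0.12 (adjusted p = 0.924). The part of dividing cells in the values of the cell-cycle genes was not tested.

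Markers of other cells moved with the genotype beside these results. All 6 microglia markers increased (5 of 6 with the block, Aif1 being lost at an adjusted p of 0.0730), and their sum was 31.6 to 54.2 CPM in controls and 63.9 to 97.5 CPM among Dot1l-cKO samples. All 5 tested markers of the ventral telencephalon were negative, with Lhx6 called, at sums of 40.5 to 194 CPM in controls and 3.87 to 48.3 CPM among Dot1l-cKO samples. None of the 6 markers each of erythroid cells, of endothelial cells and pericytes, of meninges and of choroid plexus was called in edgeR or stood at an unadjusted p under 0.05, although choroid plexus sums ran from 2.95 to 663 CPM in controls and from 4.98 to 160 CPM in Dot1l-cKO. The 5 markers of the dorsal telencephalon were high in every sample, at sums of 1098 to 1198 CPM in controls and 1117 to 1298 CPM among Dot1l-cKO samples, with Pax6 the 1 gene called of 5. The part of microglia and of ventral tissue in the values of the p53 genes was not tested.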

How the data were processed

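RNA was measured in 10 samples of E14.5 dorsal telencephalon. Per the submitters' processing notes, reads were trimmed with Trim Galore 0.2.8, aligned to mm10 with TopHat2 2.0.9 and counted with HTSeq 0.6.0. The deposited counts are whole reads per gene from stranded libraries. The authors also deposited normalised values (signal), which equal the counts divided by 1 constant per sample, used here for the limma alternative alone. Of 43629 identifiers 42548 matched GENCODE M21 (same build), and the unmatched held 0.268% of counts.

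Groups came from the labels. Counts were filtered with filterByExpr, TMM-normalised and tested with edgeR 4.0.16 (quasi-likelihood, no covariate, Benjamini-Hochberg over 17039 genes) in R 4.3.3. DESeq2 1.42.0 and limma 3.58.1 (pseudocount 1) were alternatives, as were other filters, covariates and leaving out each library. SEs were the log2 fold change divided by the root of F. The step was checked on simulated counts. No molecular identifiers were used, so count precision covers counting error only. No 2 libraries of a group were duplicates (lowest chi-square per degree of freedom 23.4).

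Same-numbered samples of both groups deviated together (correlations 0.131 to 0.597 in all 5 pairs, all over 0.1), so the replicate numbers in the labels were taken to pair the samples. Correlations between different numbers ran from -0.534 to 0.446, and 2 of the 5 controls had their best Dot1l-cKO match under their own number. Replicates 2 and 3 share a number, 57, in the headers of the normalised tables, which the labels do not explain. The labels call the samples biological replicates.

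The 10 genes and all lists were chosen with earlier results of these data known. Named were the 10 genes, the called genes of each list, its gene not called with the highest mean log2 CPM, the 5 genes most like Cdkn1a, and Dot1l. Some genes are not reported here. Genes called in the blocked fit alone, Nkx2-1, and marker genes were named after their values were seen. Annotated neighbours overlap exons of Cdkn1a (opposite strand, 7.68% of exon bases) and Bax (same strand, 12.2%), and neither is in the count tables.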

Additional observations from a re-analysis of the deposited data

Results flagged for a closer look

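Phlda3 in control replicate 3, at 6.51 CPM (log2 CPM 2.71), stood apart from the other 4 controls, whose log2 CPM ran from 1.58 to 1.86. The gap to the nearest control was 0.753 of the range of the group, above the critical value of 0.71 for 5 samples in Dixon's test. Of 52 groups examined, 1 passed this limit, where chance passes about 1 in 20.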

How the results depend on the processing

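Low counts limit the precision of Fas (5 to 18 counts per sample), Trp63 (10 to 48) and Pmaip1 (29 to 180). The number of DE genes was 1212, 2011 with DESeq2, 745 in the 6 samples outside replicates 2 and 3, 1 in the 4 samples of replicates 2 and 3 (where 2 samples a group were left), and 750 to 1357 when a library was left out. Increased among the 10 p53 genes were 0 without a block and 2 with the replicate block (Ccng1 and Phlda3). With the block and without Dot1l-cKO replicate 2 they were 2 (Ccng1 and Pmaip1), and with the header number as a block 1 (Ccng1). There was 1 with DESeq2 (Bbc3), 1 outside replicates 2 and 3 (Pmaip1), and 0 to 1 when a library was left out. The genes called thus differed between these settings. None of the 10 was decreased in any of these. Other targets, 4 called, gave 2 with no low-count filter, 2 with the sex of the embryo (by Y-linked genes) as a covariate, 0 in replicates 2 and 3, and 0 to 5 when a library was left out. Regulators, 3 called, gave 1 with no filter, 5 with either block, 1 with sex, 1 outside replicates 2 and 3, 0 within them, and 1 to 3 on leaving out a library. The BCL2 family, 2 called, gave 1 with no filter, 1 outside replicates 2 and 3, 0 within them, 1 with the block and without Dot1l-cKO replicate 2, and 1 to 2 on leaving out a library. Caspase genes, 1 called, gave 3 with DESeq2, 2 with either block, 0 with DESeq2 size factors in edgeR, with no filter, outside replicates 2 and 3, within them, and with the block without Dot1l-cKO replicate 2, and 0 to 2 on leaving out a library. Cell-cycle genes, 1 called, gave 2 with the replicate block, 3 with the header block, 0 with sex, outside replicates 2 and 3, within them and with the block without Dot1l-cKO replicate 2, and 0 to 3 on leaving out a library.

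Signs reversed for genes near 0 or resting on few samples. Pmaip1 was -0.27 in replicates 2 and 3, Trp53inp1 -0.00043 outside them and -0.016 to 0.15 on leaving out a library, Btg2 0.037 outside them, 0.020 with the block and without Dot1l-cKO replicate 2 and -0.11 to 0.041 on leaving out a library, and Cycs -0.0087 outside replicates 2 and 3. The cause was not tested, beyond the smaller number of samples in the subsets. The replicate block changed no other call among the genes of the lists than those named beside them. The fits within and outside replicates 2 and 3, and the block without Dot1l-cKO replicate 2, were added after seeing the data.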
